A study of Mus musculus with 12 samples.

Results

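The chromatin of 6 cadherin genes, Cdh1, Cdh2, Cdh3, Cdh5, Cdh11 and Cdh13, was followed peak by peak in 2 kinds of mouse cells, embryonic stem cells (mESCs) and embryonic fibroblasts (MEFs). A peak belonged to a gene if it overlapped the gene body of GENCODE M21 on GRCm38 extended by 20 kb on either side, or by 100 kb for Cdh5, a width set to take in 1 strong peak upstream of that gene. This gave 92 of 91354 peaks in the peak set built from the BGI data and 90 of 87027 in that built from the Illumina data. The gene bodies were chr8:106603351-106670246 for Cdh1 (plus strand), chr18:16588877-16809246 for Cdh2 (minus strand), chr8:106510891-106557297 for Cdh3 (plus strand), chr8:104101625-104144511 for Cdh5 (plus strand), chr8:102632095-102785642 for Cdh11 (minus strand) and chr8:118283733-119324921 for Cdh13 (plus strand). On BGI they held 23, 10, 16, 14, 7 and 22 peaks, and on Illumina 23, 9, 17, 14, 7 and 20. The genes were selected on the mESC against MEF values of these same peaks, so those values are given as a description and without a test.

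Cadherins are calcium-dependent adhesion proteins that join neighbouring cells by binding to one another across the gap between them, and their cytoplasmic tails are tied to actin through the catenins. E-cadherin (Cdh1) is the adhesion protein of epithelia and of pluripotent stem cells, N-cadherin (Cdh2) that of mesenchyme and neurons, and the exchange of the first for the second is a hallmark of epithelial to mesenchymal transition, which reprogramming of fibroblasts runs through in reverse. P-cadherin (Cdh3) lies next to Cdh1 on the chromosome, VE-cadherin (Cdh5) is the adhesion protein of endothelium, and OB-cadherin (Cdh11) that of mesenchyme and osteoblasts. T-cadherin (Cdh13) is held in the membrane by a lipid anchor and has no cytoplasmic tail, so it is no classical cadherin in the strict sense, although it stands in the same list here.

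Omni-ATAC-seq, in which a transposase cuts open DNA and tags it for sequencing, was performed on MEFs sorted as Thy1+ and on mESCs sorted as Thy1-/Ssea1+/Epcam+, both of C57/Bl6 background and with no other treatment, allele or embryo age in the labels. There were 3 libraries of each cell type (MEF 1, 2 and 4; mESC 1, 3 and 5), and each was split between a BGI DNBSEQ-G400, which reads DNA nanoballs, and an Illumina HiSeqX10, giving 12 samples in 4 groups of 3. The study calls the libraries of a cell type biological replicates, and the labels do not name the culture or animal behind each. In the peak set of its own platform a sample had 15860985 to 21662775 reads, and values below are reads in a peak, 502 bp wide on BGI, scaled to the usual common total of reads in peaks (CPM). Promoter peaks of all 5 pluripotency markers (Pou5f1, Nanog, Esrrb, Zfp42, Epcam) were called higher in mESCs on both platforms, and those of 4 of 5 fibroblast markers (Thy1, Col1a1, Col1a2, Twist2) lower, while Pdgfra, at 24.7 ± 1.69 CPM in MEFs and 27.3 ± 3.51 CPM in mESCs, was not called. Of 6 endothelial markers 4 had a promoter peak (Pecam1, Kdr, Tek, Erg), with log2 fold changes of -0.28 to 0.36 on BGI. None of these was called there by edgeR's quasi-likelihood test, and 0 of the 4 had an unadjusted p under 0.05. On Illumina Erg was called lower in mESCs (-0.50 ± 0.14). Neither blood marker (Ptprc, Spi1) had a promoter peak.

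The central 200 bases of 9 peaks outside promoters are shown because the widest separations between the cell types at Cdh1, Cdh3, Cdh5, Cdh11 and Cdh13 lay in them, and because those at 11.1 and 12.7 kb in Cdh3 were close to one another and opposite in direction. Position is given in kb from the gene's 5′ end, positive in the direction of transcription, and the sequence is the plus strand of the RefSeq assembly GRCm38.p6. Capitals mark matches, on either strand, to 7 short words: the E-box CACCTG, the AP-1 site TGANTCA, the octamer ATGCAAAT, the TEAD site GGAATG, the ESRRB site AAGGTCA, the SOX site CATTGT and the RUNX site TGTGGT. None of the words contains another. The first 3 sequences and the Cdh13 peak at 493.9 kb were more open in mESCs and the others in MEFs. None is shown for Cdh2.
Cdh1 15.1 kb, chr8:106618380-106618579: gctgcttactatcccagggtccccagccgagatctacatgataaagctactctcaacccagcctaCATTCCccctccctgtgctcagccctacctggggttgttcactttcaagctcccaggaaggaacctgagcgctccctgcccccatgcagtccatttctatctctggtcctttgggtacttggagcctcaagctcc
Cdh3 5.2 kb, chr8:106515990-106516189: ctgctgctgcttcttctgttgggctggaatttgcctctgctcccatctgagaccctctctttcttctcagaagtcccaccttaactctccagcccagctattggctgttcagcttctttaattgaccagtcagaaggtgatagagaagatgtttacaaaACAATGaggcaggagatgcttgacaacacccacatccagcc
Cdh3 12.7 kb, chr8:106523447-106523646: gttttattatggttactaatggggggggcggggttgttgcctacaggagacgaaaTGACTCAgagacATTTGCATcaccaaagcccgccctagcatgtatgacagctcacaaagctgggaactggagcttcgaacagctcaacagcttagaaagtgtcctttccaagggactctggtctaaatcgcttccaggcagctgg
Cdh3 11.1 kb, chr8:106521857-106522056: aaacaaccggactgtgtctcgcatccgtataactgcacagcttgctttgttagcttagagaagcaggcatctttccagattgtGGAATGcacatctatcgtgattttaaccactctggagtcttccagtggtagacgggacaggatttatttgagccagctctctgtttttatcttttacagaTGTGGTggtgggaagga
Cdh3 19.1 kb, chr8:106529939-106530138: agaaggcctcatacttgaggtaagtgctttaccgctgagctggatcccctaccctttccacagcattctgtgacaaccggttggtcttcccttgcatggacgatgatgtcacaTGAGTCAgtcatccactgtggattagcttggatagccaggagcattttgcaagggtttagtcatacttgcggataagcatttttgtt
Cdh5 -78.5 kb, chr8:104023046-104023245: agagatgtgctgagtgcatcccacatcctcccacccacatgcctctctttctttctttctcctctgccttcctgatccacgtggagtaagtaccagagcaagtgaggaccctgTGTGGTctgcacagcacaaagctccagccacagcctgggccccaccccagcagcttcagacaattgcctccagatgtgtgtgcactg
Cdh11 44.5 kb, chr8:102741040-102741239: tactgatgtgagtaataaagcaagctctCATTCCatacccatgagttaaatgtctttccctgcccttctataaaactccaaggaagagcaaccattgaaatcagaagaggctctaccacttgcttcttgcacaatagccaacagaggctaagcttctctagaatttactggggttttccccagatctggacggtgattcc
Cdh13 493.9 kb, chr8:118777514-118777713: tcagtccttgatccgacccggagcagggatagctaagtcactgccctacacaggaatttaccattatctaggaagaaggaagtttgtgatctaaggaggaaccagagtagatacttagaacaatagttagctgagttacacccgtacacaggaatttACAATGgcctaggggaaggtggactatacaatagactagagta
Cdh13 378.8 kb, chr8:118662461-118662660: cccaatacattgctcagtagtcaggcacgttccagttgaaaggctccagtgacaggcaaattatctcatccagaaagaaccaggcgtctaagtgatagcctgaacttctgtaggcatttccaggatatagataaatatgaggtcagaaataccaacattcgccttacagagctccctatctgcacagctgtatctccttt

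Of these sequences all but the Cdh13 peak at 378.8 kb held 1 or 2 matches, and no word was common to them. Of 17 such central sequences read from the named peaks of Cdh1, Cdh3, Cdh5, Cdh11 and Cdh13, 3 held no match: that one, the Cdh13 peak at 653.7 kb and the Cdh11 peak at 1.6 kb. The TEAD site was in the Cdh1 peak at 15.1 kb, the Cdh3 peak at 11.1 kb (beside a RUNX site) and the Cdh11 peak at 44.5 kb, and the SOX site in the Cdh3 peak at 5.2 kb and the Cdh13 peak at 493.9 kb. The Cdh3 peak at 12.7 kb, open in mESCs, held an AP-1 site and an octamer 5 bases apart, and the Cdh3 peak at 19.1 kb, open in MEFs, an AP-1 site alone. The Cdh5 peak at -78.5 kb held a RUNX site. Over whole peaks of the BGI set, the E-box was in 17 of the 41 cadherin peaks (41.5%) that were at least 2-fold higher in mESCs and in 4 of the 27 (14.8%) at least 2-fold lower. Over all peaks with a sequence the same shares were 44.5% and 17.4%. The AP-1 site was in 9 of the 41 (22%) and in 12 of the 27 (44.4%), with 19.3% and 44.5% over all peaks. The octamer was in 2 of the 41 and 1 of the 27, with 5.31% and 2.43% over all peaks. The TEAD site was in 39 of the 92 cadherin peaks (42.4%) and in 31.7% of all peaks, the RUNX site in 32 (34.8%) and 31.8%, the SOX site in 22 (23.9%) and 20.4%, and the ESRRB site in 12 (13.0%) and 9.59%.

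Of the 92 cadherin peaks on BGI, 41 were at least 2-fold higher in mESCs and 27 at least 2-fold lower, and 24 lay within 2-fold. Among all peaks, 33% were at least 2-fold higher and 30.1% at least 2-fold lower. On Illumina 37 of 90 were at least 2-fold higher and 29 lower, with 33.6% and 28.2% of all peaks. The 3 MEF and the 3 mESC values did not overlap in 84 of the 92 peaks on BGI (85.1% of all peaks) and in 80 of the 90 on Illumina (85.6%). The cadherin peaks had a median log2 fold change of 0.24 in the BGI set, where that of all peaks was -0.08, and of 0.23 in the Illumina set, where it was -0.03.

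The genes differed in how their peaks divided. At Cdh1, 19 of 23 peaks on BGI were at least 2-fold higher in mESCs and 0 at least 2-fold lower, and at Cdh11 0 were higher and 6 of 7 lower. Cdh2 had 1 higher and 5 lower of 10, and Cdh5 1 higher and 5 lower of 14. On Illumina, Cdh1 had 19 of 23 higher and 0 lower, and Cdh11 0 higher and 6 of 7 lower. Cdh3 (7 higher and 5 lower of 16) and Cdh13 (13 higher and 6 lower of 22) held both kinds, and on Illumina they had 5 higher and 6 lower of 17 and 10 higher and 6 lower of 20. Peaks of opposite direction, each 2-fold or more, followed one another 8 times among the 21 neighbouring pairs of Cdh13, 4 times among the 15 of Cdh3 and once each among the 9 of Cdh2 and the 13 of Cdh5. The gaps between them were 4864 to 287278 bases in Cdh13, 338 to 12198 in Cdh3, 38669 in Cdh2 and 52687 in Cdh5. The share of such pairs among all peaks was not counted. Cdh1 and Cdh11 had 2-fold peaks of 1 direction, so no such pair could occur there.

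**Figure D1:**
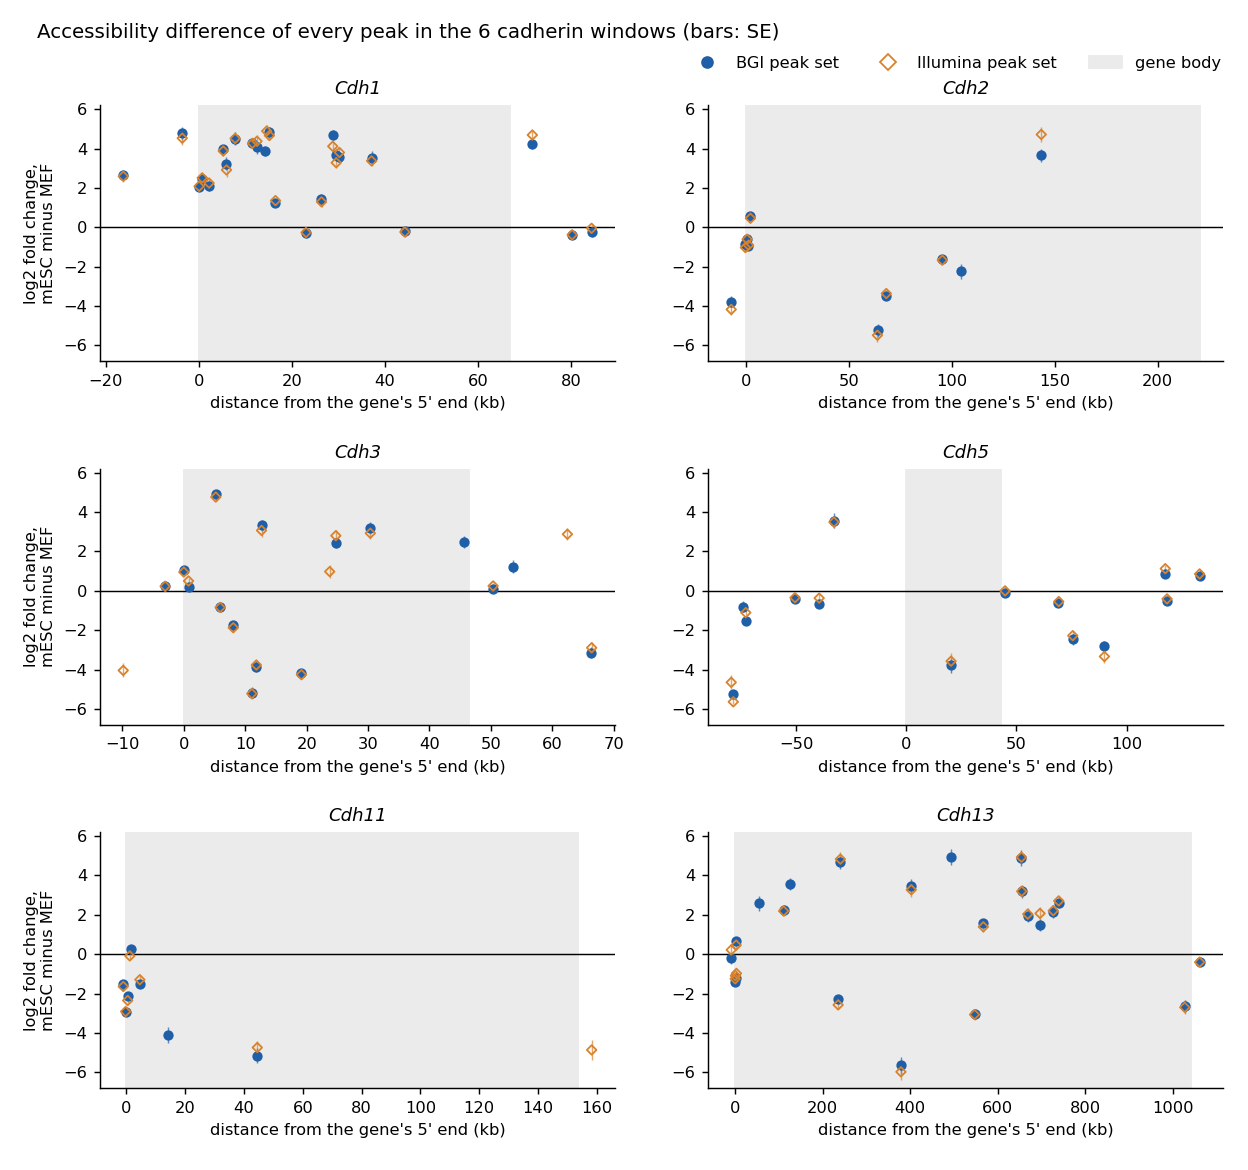
Log2 fold change of accessibility (mESC minus MEF, y axis) of every peak in the 6 windows against its distance from the gene's 5′ end in kb (x axis, positive downstream). Blue circles are the BGI peak set, orange diamonds the Illumina peak set, bars the SE and grey the gene body; Cdh1 lies above 0 along most of its length, Cdh11 below 0, and Cdh3 and Cdh13 hold peaks on both sides.

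Cdh1 was open along its promoter and the first part of its body in mESCs. The promoter peak, at chr8:106603099-106603600, had 6.19, 6.26 and 7.47 CPM in MEFs 1, 2 and 4 and 31.5, 28.4 and 27.9 CPM in mESCs 1, 3 and 5 on BGI. Every mESC library was above every MEF library. The log2 fold change, mESC minus MEF as throughout, was 2.07 ± 0.13 (SE derived from edgeR's F statistic, n = 3 libraries per cell type). In such bulk samples, fewer cells with an open site and less opening in each cell cannot be told apart. On Illumina the matching peak had 6.48, 8.25 and 8.37 CPM in MEFs and 35.7, 33.9 and 31.4 CPM in mESCs, a log2 fold change of 2.09 ± 0.12. Most peaks around the promoter were lower than it in MEFs.

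From 5.2 to 15.1 kb into Cdh1 there were 7 intronic peaks, with mean levels of 0.425 to 1.21 CPM in MEFs and 7.09 to 24.8 CPM in mESCs. Their log2 fold changes were 3.24 to 4.83, and the cell types did not overlap in any of the 7. The peak at 15.1 kb, whose sequence is shown above, had 0.739, 0.795 and 0.249 CPM in MEFs and 20.9, 15.0 and 18.4 CPM in mESCs, a log2 fold change of 4.83 ± 0.28 on BGI and of 4.67 ± 0.24 on Illumina. A second run of 4 intronic peaks, from 28.7 to 37.1 kb, had log2 fold changes of 3.52 to 4.69. An intergenic peak upstream, at -3.6 kb, had 0.646, 0.199 and 0.249 CPM in MEFs and 11, 11.1 and 10.5 CPM in mESCs (log2 fold change 4.78 ± 0.32, and 4.53 ± 0.34 on Illumina). Without MEF 1 the BGI value was 5.54, and without MEF 4 the Illumina value was 5.33. Beyond the 3′ end, at 71.7 kb, an intergenic peak of 0.957 ± 0.462 CPM in MEFs reached 19.1 ± 1.96 CPM in mESCs.

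The most accessible peak of Cdh1, and the highest of all cadherin peaks in mESCs, lay in an intron at 16.4 kb and was open in both cell types. It had 25.8, 21.0 and 20.8 CPM in MEFs and 56.6, 54 and 58.8 CPM in mESCs, a log2 fold change of 1.26 ± 0.10. The cell types were apart there too, but MEFs had more signal than at any other Cdh1 peak but one. That other peak was the promoter of Tango6, the gene downstream of Cdh1, at 80.2 kb, with 28.3, 26 and 24.6 CPM in MEFs and 21.6, 22.1 and 18.9 CPM in mESCs (log2 fold change -0.40 ± 0.11). The intronic peak at 23.0 kb, with 8.54, 10.2 and 6.32 CPM in MEFs and 8.07, 4.61 and 8.70 CPM in mESCs, overlapped between the cell types (-0.31 ± 0.23).

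Cdh3, whose gene body ends upstream of that of Cdh1 on the same strand, held strong peaks of both cell types in its introns. Its promoter peak, at chr8:106510624-106511125, had 7.11, 7.36 and 8.02 CPM in MEFs and 17.9, 14.6 and 16.8 CPM in mESCs on BGI, a log2 fold change of 1.06 ± 0.15, with no overlap. On Illumina the values were 9.19, 8.45 and 9.25 CPM against 20.6, 14.8 and 18.4 CPM (0.95 ± 0.14). The next peak downstream, also within 1 kb of a start site, differed by 0.18 ± 0.14 on BGI and 0.50 ± 0.13 on Illumina.

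Inside Cdh3 the direction changed repeatedly over short distances. The intronic peak at 5.2 kb had 0.462, 0.795 and 1.39 CPM in MEFs and 30.1, 23.9 and 28.8 CPM in mESCs, and was the most mESC-biased peak of the gene (log2 fold change 4.90 ± 0.23, and 4.76 ± 0.19 on Illumina). Its neighbour at 5.9 kb had 15.7, 12.5 and 14.8 CPM in MEFs and 8.89, 7.81 and 9.19 CPM in mESCs, so the order was reversed (-0.80 ± 0.15). The peak at 11.1 kb had 18.4, 14.9 and 22.5 CPM in MEFs and 0.757, 0.473 and 0.373 CPM in mESCs, a log2 fold change of -5.17 ± 0.26. It was followed at 11.8 kb by a second MEF peak of 11.9 ± 1.97 CPM against 0.839 ± 0.0269 CPM. Only 338 bases beyond that, the peak at 12.7 kb had 1.06, 1.24 and 0.697 CPM in MEFs and 12.6, 7.98 and 11.1 CPM in mESCs (3.32 ± 0.27). At 19.1 kb MEFs had 37.7, 30.8 and 28.8 CPM and mESCs 2.77, 1.77 and 1.12 CPM (-4.17 ± 0.22), the highest MEF level among the Cdh3 peaks.

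Between Cdh3 and Cdh1, the peaks on the facing edges of their 2 windows were opposite in direction. The last peak inside the Cdh3 window, an intergenic one at 66.4 kb, had a mean of 12.5 CPM in MEFs and 1.48 CPM in mESCs (-3.14), and lay 5.8 kb outside the Cdh1 window. The first peak of the Cdh1 window, at -16.3 kb and at the start of the noncoding gene 1110028F18Rik, had 1.12 CPM in MEFs and 7.45 CPM in mESCs (2.66).

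Cdh2 was less divided between the cell types at its start than in its introns. Its highest promoter peak, at chr18:16808276-16808777, had 22.3, 25.3 and 25.8 CPM in MEFs and 14.8, 19.6 and 15.8 CPM in mESCs on BGI, a log2 fold change of -0.61 ± 0.13. On Illumina the values were 30.0, 30.4 and 31.9 CPM against 17, 22.7 and 22.9 CPM (-0.60 ± 0.11). MEFs were above mESCs in every library on both platforms, but mESCs kept more than 14 CPM. The 3 promoter peaks of the gene had log2 fold changes of -0.93 to -0.61, and an intronic peak at 2.3 kb the opposite sign, with 11.3, 12.9 and 13.0 CPM in MEFs and 18.9, 19.0 and 20.6 CPM in mESCs (0.59 ± 0.12).

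Deeper in the body, 4 intronic peaks of Cdh2 from 64.2 to 104.3 kb were lower in mESCs, by -5.24 to -1.59 on the log2 scale. The peak at 64.2 kb had 21.7, 20.7 and 11.3 CPM in MEFs and 0.504, 0.591 and 0.373 CPM in mESCs (-5.24 ± 0.32, and -5.48 ± 0.32 on Illumina), and MEF 4 was the lowest MEF library there on both platforms. The peak at 68.3 kb had 24.2, 21.9 and 23.3 CPM in MEFs and 3.09, 1.42 and 1.99 CPM in mESCs. At -7.0 kb, at a start site of the noncoding gene Gm15328, MEFs had 9.69, 11.3 and 8.16 CPM and mESCs 0.504, 0.710 and 0.994 CPM. A single strong peak ran the other way, in the intron at 143.5 kb, with 0.969, 0.398 and 0.398 CPM in MEFs and 7.0, 7.33 and 9.50 CPM in mESCs (3.65 ± 0.33). On Illumina its log2 fold change was 4.72 ± 0.38, and without MEF 1 it was 4.28 on BGI and 5.41 on Illumina.

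Cdh11 was open at its start in MEFs and had no peak with a higher level in mESCs beyond the spread between libraries. Its highest promoter peak, at chr8:102784884-102785385, had 34.2, 30.2 and 35.9 CPM in MEFs and 7.82, 8.99 and 7.14 CPM in mESCs on BGI, and 42.9, 39.6 and 43.9 CPM against 7.25, 9.91 and 8.37 CPM on Illumina. The log2 fold changes were -2.13 ± 0.13 and -2.35 ± 0.12. The adjacent promoter peak at -0.3 kb was the furthest apart of the 3 promoter peaks, at 14.4, 13.2 and 14.1 CPM in MEFs and 2.14, 2.13 and 1.37 CPM in mESCs (-2.95 ± 0.21), and that at -1.0 kb the closest (-1.51 ± 0.20). In the introns, the peak at 44.5 kb had 8.91, 8.35 and 6.37 CPM in MEFs and 0.315, 0.296 and 0.0621 CPM in mESCs (-5.16 ± 0.39), and that at 14 kb 6.37, 6.51 and 6.67 CPM against 0.820, 0.237 and 0.124 CPM. The exception was the peak at 1.6 kb, where 8.96, 5.42 and 10.4 CPM in MEFs overlapped 9.84, 8.51 and 12.4 CPM in mESCs.

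Cdh13, the longest of the 6 genes at 1041189 bp, had a promoter more open in MEFs and a body with more mESC than MEF peaks. The promoter peak at chr8:118283510-118284011 had 13.3, 16.9 and 16.2 CPM in MEFs and 6.56, 5.79 and 5.90 CPM in mESCs on BGI (-1.41 ± 0.16), and 14.6, 17.6 and 18 CPM against 7.19, 7.72 and 6.82 CPM on Illumina (-1.25 ± 0.14). The intronic peak at 493.9 kb had 0.185, 0.199 and 0.199 CPM in MEFs and 7.69, 4.38 and 7.52 CPM in mESCs (4.95 ± 0.40). At 653.7 kb MEFs had 0, 0.497 and 0.647 CPM and mESCs 13.0, 11.6 and 11 CPM (4.90 ± 0.41, and 5.51 without MEF 4). This peak belonged to a run of 7, from 566.8 to 738.9 kb, in which every peak was higher in mESCs (1.48 to 4.90). The strongest MEF peak by fold lay nearer the promoter, at 378.8 kb, with 7.34, 8.30 and 8.66 CPM in MEFs and 0.126, 0 and 0.373 CPM in mESCs (-5.64 ± 0.44, and -5.97 ± 0.42 on Illumina). The BGI value was -5.02 without mESC 3 and -6.96 without mESC 5, and the Illumina value -6.92 without mESC 1. The peak at 546.7 kb was also a MEF peak, with 12.4, 10.6 and 7.87 CPM against 1.32, 1.36 and 1.24 CPM (-3.04 ± 0.25).

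Cdh5 had no promoter peak in any of the 4 peak sets, and its window held the single most accessible cadherin peak of MEFs. That intergenic peak, at chr8:104022895-104023396 and -78.5 kb from the gene, had 77.7, 69.2 and 70.6 CPM in MEFs and 2.08, 1.89 and 2.11 CPM in mESCs on BGI. On Illumina it had 68.4, 64.1 and 66.2 CPM and 1.44, 1.12 and 1.55 CPM. The log2 fold changes were -5.22 ± 0.13 and -5.64 ± 0.13. On Illumina a further peak of its own was listed next to it, starting at position 104021945, with means of 11.6 CPM in MEFs and 0.473 CPM in mESCs.

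In the BGI set the peak at -78.5 kb was the outermost upstream peak inside the Cdh5 window. The next peak beyond lay 30.2 kb outside, and had a mean of 7.05 CPM in MEFs and 0.206 CPM in mESCs (-5.13). The only intronic peak within Cdh5 itself, at 20.4 kb, had 9.83, 9.99 and 4.48 CPM in MEFs and 0.630, 0.414 and 0.808 CPM in mESCs (-3.78 ± 0.37). Between them, at -32.8 kb, the direction was reversed, with 0.554, 1.64 and 0.249 CPM in MEFs and 11.2, 8.75 and 10.4 CPM in mESCs (3.56 ± 0.38, and 4.55 without MEF 2). On the other side of the gene the window took in Bean1 and part of Tk2, and the intronic peak at 90.0 kb there had 18.6 ± 2.03 CPM in MEFs and 2.77 ± 1.33 CPM in mESCs. Within 1 kb of the start sites of Cdh5, the loose peak calls of single samples held 1 to 3 summits in each MEF sample, with a highest -log10 p of 5.99 to 20.8. They held 0 or 1 in each mESC sample, with at most 8.31. At the Cdh1 start sites the highest -log10 p was 18.8 to 32.5 in the MEF samples and 177 to 240 in the mESC samples.

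In MEFs the promoter peaks ranked Cdh11, Cdh2, Cdh13, Cdh3 and Cdh1 by mean CPM on BGI, at 33.5 ± 2.94, 24.4 ± 1.92, 15.5 ± 1.88, 7.49 ± 0.469 and 6.64 ± 0.719 CPM (SD, n = 3). Only the last 2, Cdh3 and Cdh1, overlapped between libraries. In mESCs the order was Cdh1, Cdh2, Cdh3, Cdh11 and Cdh13, at 29.3 ± 1.96, 16.7 ± 2.57, 16.4 ± 1.68, 7.98 ± 0.933 and 6.08 ± 0.413 CPM, and here Cdh2 overlapped Cdh3. Cdh11 and Cdh13, with ranges of 7.14 to 8.99 and 5.79 to 6.56 CPM, did not overlap on BGI, but did on Illumina, with 7.25 to 9.91 and 6.82 to 7.72 CPM. Cdh1 had the lowest mean of the 5 promoters in MEFs, with 1 of its 3 libraries above the lowest Cdh3 library on BGI and none on Illumina, and the highest in mESCs. Among 29805 to 29807 promoter peaks of other genes, those with the smallest Euclidean distance of log2 CPM over the 6 BGI samples were Aldoc and Plekhg4 for Cdh1 (0.25 and 0.30), Aebp2 and Ccdc93 for Cdh2 (0.14 and 0.16), Ralgds and Fhad1 for Cdh3 (0.18 and 0.18), Zbtb10 and Kif6 for Cdh11 (0.31 and 0.35) and Ctsf and Rin2 for Cdh13 (0.28 and 0.30).

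**Figure D2:**
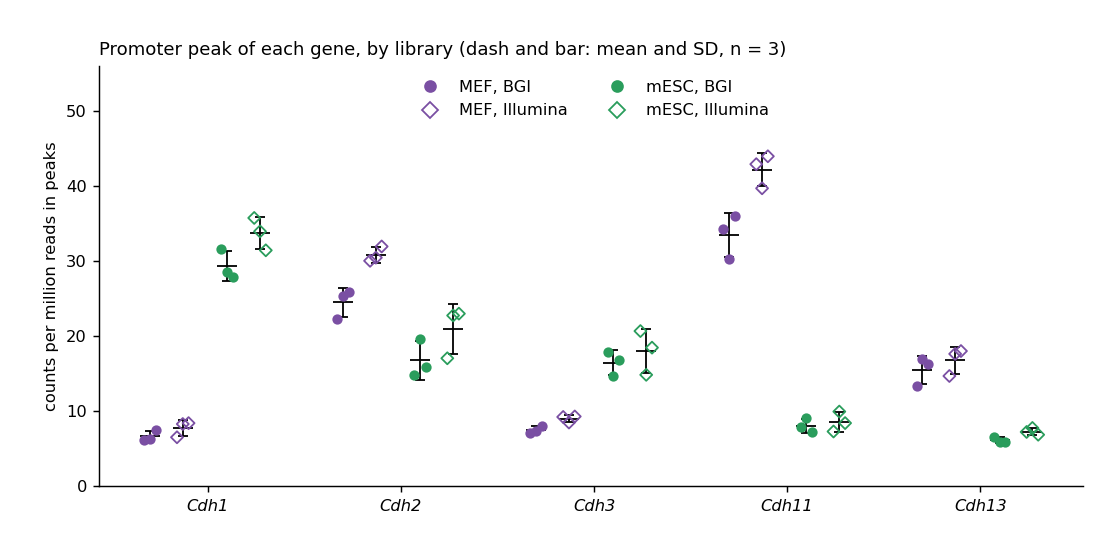
Accessibility of the highest promoter peak of 5 cadherin genes in CPM (y axis), by gene (x axis), with MEFs in purple and mESCs in green, BGI as filled circles and Illumina as open diamonds. Dashes and bars are mean and SD (n = 3 libraries); Cdh1 and Cdh3 are higher in mESCs and Cdh2, Cdh11 and Cdh13 in MEFs, on either platform.

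Summed over all peaks of a window, the difference between the cell types was largest for Cdh1 and Cdh11 and smallest for Cdh3 and Cdh13 by the ratio of the means. The Cdh1 sum on BGI was 97.9, 90.8 and 85.8 CPM in MEFs and 363, 299 and 336 CPM in mESCs, a ratio of 3.63. The Cdh11 sum was 93.2, 81.2 and 94.2 CPM against 29.2, 25.6 and 28.9 CPM, a ratio of 0.312, and Cdh2 had a ratio of 0.519. The Cdh5 ratio was 0.419 with the peak at -78.5 kb, for which the window was widened, and 0.652 without it, at 122 ± 4.99 CPM in MEFs and 79.5 ± 5.92 CPM in mESCs. On Illumina it was 0.429 with that peak and 0.651 without. For Cdh3, 186, 163 and 166 CPM in MEFs stood against 159, 133 and 159 CPM in mESCs, a ratio of 0.874 although 12 of its 16 peaks differed by 2-fold or more. For Cdh13 the ratio was 1.25 on BGI and 1.04 on Illumina, where the sums were 143 to 150 CPM in MEFs and 150 to 154 CPM in mESCs. The Cdh13 sum took in the promoter peak of the neighbour Hsbp1. That peak had 36.6 CPM in MEFs and 29.3 CPM in mESCs on BGI, and 41.5 and 32.4 CPM on Illumina. Sums of other windows also held promoter peaks of neighbours, such as Tango6 in that of Cdh1.

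**Figure D3:**
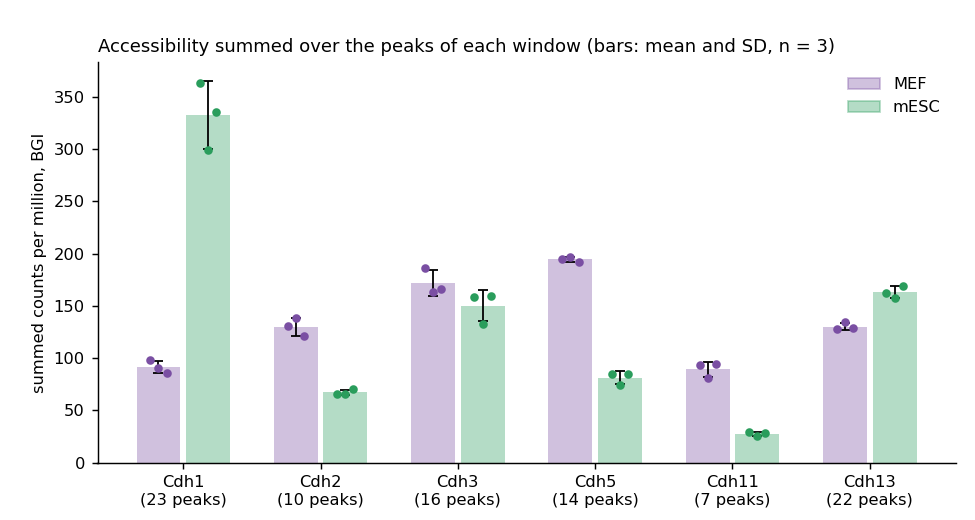
Sum of CPM over all peaks of each window in the BGI samples (y axis), by gene with its number of peaks (x axis), in MEFs (purple) and mESCs (green). Bars and whiskers are mean and SD of 3 libraries and points the libraries; Cdh1 rises from 91.5 to 332 CPM between MEFs and mESCs, and Cdh3 differs little in sum.

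The loose calls of single samples were counted in the same windows. In the Cdh1 window 14 to 18 summits were called in the MEF samples and 66 to 84 in the mESC samples on BGI, and 15 to 16 and 64 to 90 on Illumina. In the Cdh11 window it was 56 to 80 in MEFs and 6 to 7 in mESCs on BGI, of which 12 to 15 and 4 to 5 had a -log10 p of at least 10. MEF samples had been reduced by the authors to more reads than mESC samples, so these numbers compare samples of unequal depth. Over the whole genome 223387 to 230117 summits were called in the MEF samples and 236601 to 251837 in the mESC samples on BGI, and 216566 to 219464 and 229198 to 276268 on Illumina.

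Platform was compared within each cell type, a contrast that played no part in choosing the genes. In the MEF peak set 55 cadherin peaks were tested, and 1 was called between BGI and Illumina by edgeR without the library as a block (4.06% of all peaks called). That peak, a promoter peak of Cdh2 at chr18:16809126-16809639 with a GC content of 75.9%, had 15.2, 18.8 and 17.4 CPM in MEFs 1, 2 and 4 on BGI and 24.4, 28.6 and 27.3 CPM on Illumina. BGI was lower in all 3 libraries, by a log2 fold change of -0.67 ± 0.11 (adjusted p = 0.0147, edgeR). Without MEF 1 or without MEF 2 the count was 0, and without MEF 4 it was 5. In the mESC peak set 0 of 68 were called by edgeR (3.23% of all peaks), 6 had an unadjusted p under 0.05 (8.82%, against 13.1% of all peaks), and DESeq2 called 0.

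Each library was read on both instruments, and with the library as a block 19 of the 55 peaks in MEFs (29.2% of all peaks) and 14 of the 68 in mESCs (21.3%) were called. In MEFs 8 were lower on BGI, all 8 of them promoter peaks with a GC content of 44.2 to 78.3% (median 69.0%), and 11 were higher on BGI, none a promoter peak, with a GC content of 45.5 to 55.3% (median 51.4%). Over all peaks 9471 were lower and 8604 higher, with median GC contents of 67.3% and 48.2%, so a like relation to GC content held across the peak set. The lower ones took in promoter peaks of Cdh2, Cdh11 and Cdh13 and of the neighbours Bean1, Hsbp1 and 6030452D12Rik. The higher ones were intronic and intergenic, among them the Cdh5 peak at -78.5 kb (0.14 ± 0.05, adjusted p = 0.0227, edgeR) and the Cdh3 peak at 19.1 kb (0.17 ± 0.06, adjusted p = 0.0274, edgeR). In mESCs 11 were lower on BGI, of which 9 were promoter peaks, the Cdh1 promoter among them (-0.22 ± 0.06, adjusted p = 0.00151, edgeR), and 3 were higher, with GC contents of 42.6 to 73.9% (median 59.0%) and 51.1 to 51.8%, while over all peaks 10431 were lower and 3873 higher.

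GC content moved with these differences. In the fit without the block, of the 10 cadherin peaks of MEFs with a GC content of at least 60%, 9 were lower on BGI and, of the 45 below 60%, 35 were higher on BGI, with medians of -0.23 and 0.14 on the log2 scale. In mESCs 8 of 9 and 43 of 59 did so. With an offset for GC content added to the block, 6 peaks in MEFs (12.7% of all peaks) and 3 in mESCs (8.66%) were called, and the Cdh2 promoter peak named above had -0.13 ± 0.07 (adjusted p = 0.236, edgeR). The Cdh11 promoter peak at 0.5 kb changed sign, from -0.20 ± 0.06 with the block to 0.18 ± 0.05 with the offset added (adjusted p = 0.00376 and 0.00868, edgeR). The 3 in mESCs were the Cdh13 peaks at 653.7 and 654.4 kb and a promoter peak of Gm10073 in the Cdh3 window, all lower on BGI.

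**Figure D4:**
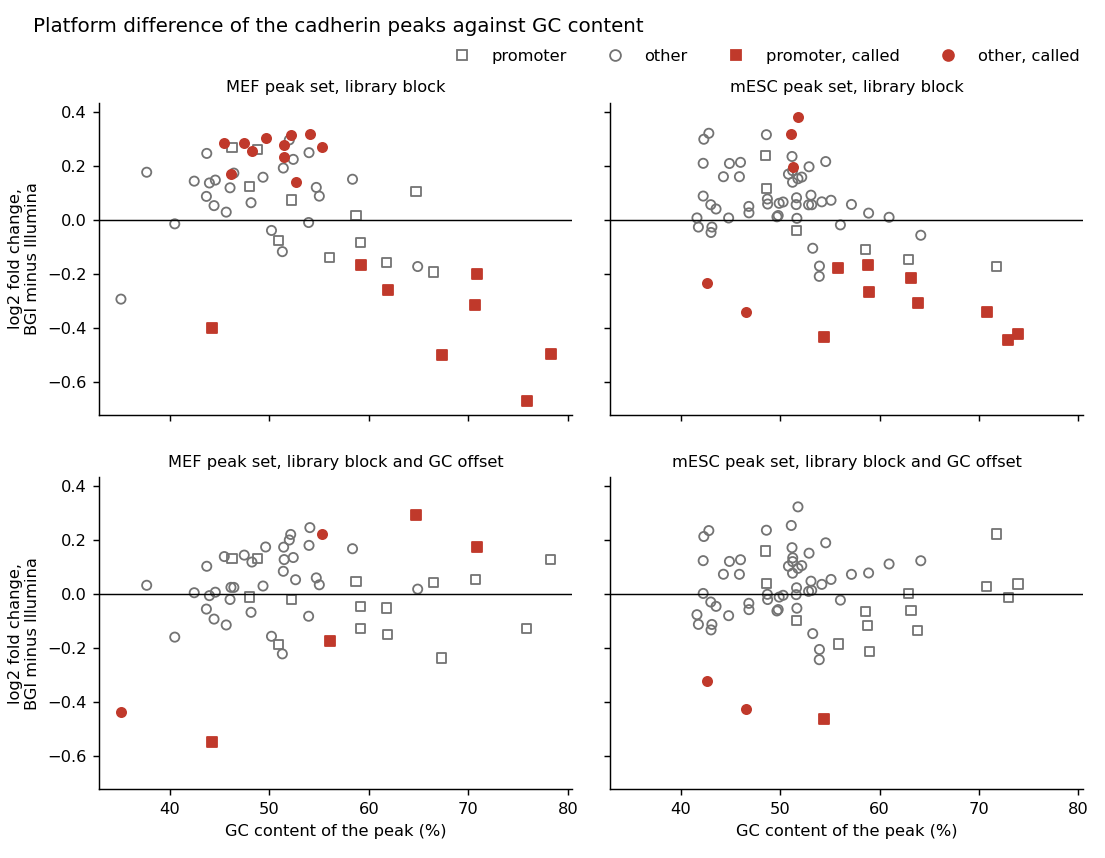
Log2 fold change between platforms (BGI minus Illumina, y axis) of the cadherin peaks in the MEF and mESC peak sets against GC content in % (x axis), with the library as a block (top) and with a GC offset added (bottom). Squares are promoter peaks, circles other peaks and red marks peaks called at an adjusted p under 0.05 by edgeR; with the block alone most peaks of at least 60% GC lie below 0, and with the offset 4 of 10 do so in MEFs and 3 of 9 in mESCs.

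The cell type difference itself was compared between platforms by an interaction term on the BGI peak set. By edgeR 0 of 92 cadherin peaks were called (0% of all peaks), and 1 had an unadjusted p under 0.05 (2.61% of all peaks did), the Cdh5 peak at -78.5 kb (0.48 ± 0.21, adjusted p = 1, where the median of all peaks was 0.11). With the library as a block 0 of 92 were called (0.386% of all peaks), 7 had an unadjusted p under 0.05 (7.61%, against 13.2% of all peaks), and the lowest adjusted p by edgeR was 0.161, at the peak at 90.0 kb from Cdh5. Counted over the same intervals, 90 of 92 peaks had the same sign on both platforms, including all 68 that differed by 2-fold or more on BGI. Over all peaks this held for 88868 of 91354 and for all 57598 of at least 2-fold, in the same libraries read on both instruments. The absolute log2 fold change was larger on Illumina in 46 of 92 (50%, against 50.8% of all peaks). A peak covering at least 50% of the interval was listed on the other platform for 80 of the 92 BGI peaks and 80 of the 90 Illumina peaks. Of the BGI peaks without such a match 4 were in Cdh13, the peak at 493.9 kb among them.

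The other genes of the adhesion complex were listed by function, but with earlier results of these data known. Their calls and adjusted p-values between mESCs and MEFs are therefore a description. Promoters named from these lists were in part picked for the size of their difference on BGI. In windows made by the 20 kb rule, 13 further classical cadherins, 9 catenins and anchor proteins and 5 nectins with afadin had 241 peaks on BGI. By edgeR 126 were called higher and 78 lower in mESCs, against 40.9% and 43.2% of all peaks, and on Illumina 117 and 70 of 225, against 42.1% and 42.4%. On BGI the further cadherins made up 39 of the higher and 27 of the lower among 75 peaks, the catenins and anchors 63 and 41 among 123, and the nectins and afadin 24 and 10 among 43. Cdh9 and Cdh19 had no peak. Of the 9 promoter peaks of catenins and anchors, 2 were called higher, 2 lower and 5 neither. The share called among all promoter peaks was not counted, here or for the promoter counts in the next paragraph. Among all 29808 promoter peaks on BGI, 19.4% were at least 2-fold higher and 14.7% at least 2-fold lower in mESCs. The promoter peak of Ctnnb1, beta-catenin, which links cadherins to alpha-catenin and acts in WNT signalling, had 17.5 ± 2.43 CPM in MEFs and 13.1 ± 0.817 CPM in mESCs (log2 fold change -0.49 ± 0.14, adjusted p = 0.00312, edgeR). That of Ctnna1, alpha-catenin, which binds actin, had 16.1 ± 1.11 and 18.9 ± 1.23 CPM and was not called (0.17 ± 0.12), while on Illumina its highest promoter peak, at another position, was (0.70 ± 0.11, adjusted p = 1.31e-05, edgeR). Ctnnd1, p120-catenin, which keeps cadherins at the membrane, had -0.80 ± 0.12 (adjusted p = 6.99e-06), Arvcf, its relative, 0.62 ± 0.10 (adjusted p = 9.12e-06, edgeR), and plakoglobin (Jup) 0.27 ± 0.09 (adjusted p = 0.0109, edgeR).

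Of the 10 further cadherins with a promoter peak on BGI, 5 were called higher in mESCs and 2 lower by edgeR, and of the 9 on Illumina 3 were called higher and 3 lower. Cdh20 was called higher on BGI alone, Cdh6 lower on Illumina alone, and Cdh7 had no promoter peak on Illumina. The largest differences were at Cdh18 (24.9 ± 0.982 CPM in MEFs and 7.39 ± 0.258 CPM in mESCs, -1.82 ± 0.13, adjusted p = 4.93e-10), Cdh7 (4.63 ± 0.734 and 11.6 ± 0.923 CPM, 1.26 ± 0.18, adjusted p = 4.38e-06) and Cdh22 (28.2 ± 2.94 and 13.5 ± 1.01 CPM, -1.12 ± 0.12, adjusted p = 8.73e-08). Among the nectins, adhesion proteins that act beside cadherins, Nectin4 had 1.09 ± 0.504 CPM in MEFs and 8.38 ± 0.619 CPM in mESCs (2.87 ± 0.29, adjusted p = 5.73e-08, edgeR), while Nectin1 (-0.35 ± 0.12, adjusted p = 0.0112) and Afdn, the linker of nectins to actin (-0.65 ± 0.14, adjusted p = 0.000357), were lower in mESCs by edgeR, and Nectin2 and Nectin3 were not called. On Illumina, Nectin2 was called lower too (-0.18 ± 0.08).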

How the data were processed

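The authors gave the Tn5-tagged libraries to BGI for sequencing. Reads of both platforms were aligned by the authors with Bowtie2 to mm10 (GRCm38), cleared of duplicates, mitochondrial and chromosome Y reads, and reduced to 1 read number per cell type. MACS2 (named in the submitters' processing notes, version not given in the sources used here) called peaks loosely in each sample, which the authors merged into fixed-width peak sets. The deposited count tables hold whole-number counts of reads per peak, not normalized. Each summit in the deposited calls has a fold ratio over background and the caller's −log10 p and −log10 q, of which the first 2 were used.

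CPM was computed from the counts of each set. Differences were fitted over all peaks with edgeR 4.0.16 (TMM, filterByExpr, which removed no peak, quasi-likelihood test, Benjamini-Hochberg adjustment, threshold 0.05) in R 4.3.3, and DESeq2 1.42.0 was an alternative. A prior count of 2 was set for log2 CPM, as in the GC offset and the distances between promoters, and not in the fits. The edgeR step was tested on simulated data. Each SE was the absolute log2 fold change divided by the square root of edgeR's F statistic, and is not the spread between libraries. Cell types were compared within a platform and platforms within a cell type. The unsuffixed columns of the Illumina table were taken as the Illumina samples, and for all 6 libraries the BGI to Illumina ratio of counts per peak correlated across peaks with that of summit folds in the same samples' calls (Spearman's rho 0.772 to 0.817; peaks are not independent replicates). No per-sample column was left unused (0).

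Members and lists were chosen with earlier results of these data known. Named were the highest promoter peak of each gene (within 1 kb of a start site), the 2 highest and 2 lowest log2 fold changes per gene on BGI among peaks of at least 5 CPM in one cell type, the peak with the lowest p in the Cdh5 window, up to 5 peaks per platform comparison, 2 promoters most alike, and 3 promoters per list. Other peaks in the text were chosen after their values were seen. Lists were the further cadherins, catenins and anchors, nectins and afadin, and markers of mESCs, fibroblasts, endothelium and blood. Each library was sequenced on both platforms, and the deviations of the same library correlated across peaks with r of 0.618 to 0.836 in MEFs and 0.514 to 0.723 in mESCs. Alternatives were DESeq2, other size factors or library sizes, other filters on low counts, a fold minimum, the other platform's samples, other windows, each library left out, the library as a block, the block with a GC offset and, chosen after seeing the data, the Cdh5 sum without the peak at -78.5 kb.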

Additional observations from a re-analysis of the deposited data

How the results depend on the processing

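In the contrast on which the genes were selected, edgeR counts are no test of the cadherin peaks and are given for completeness. On BGI 45 were past the threshold as higher and 38 as lower in mESCs (40.9% and 43.2% of all peaks), on Illumina 42 and 36 (42.1% and 42.4%). With the gene bodies alone, where fewer peaks were counted, these were 38 and 23 and 35 and 22. The lower count on BGI thus moved by more than 1.5 times, and no share of the gene-body peaks is given here. The number called between platforms in MEFs was 1, and it was 19 with the replicate block, 6 with the replicate block and a GC offset, 4 with DESeq2 and 0 to 5 with 1 library left out. In mESCs it was 0, which the replicate block raised to 14, and the replicate block together with a GC offset to 3. The cause of these differences between fits was not tested. Of 141 counts under alternatives, 131 stayed within 1.5 times the reported count. Of 660 values of the named log2 fold changes under alternatives, 594 moved by no more than 1 SE, 66 moved further and 0 changed sign. Many of these peaks were named as the highest or lowest of their gene, so a change of sign was unlikely by selection. Scaling to the read numbers to which the samples had been reduced shifted the median of all BGI peaks from -0.08 to 0.06, that of all Illumina peaks from -0.03 to 0.09, and the named log2 fold changes by 0.121 to 0.146. Low counts in one cell type limit the precision of some of the largest log2 fold changes. On BGI the Cdh13 peak at 378.8 kb, with 0.166 CPM in mESCs, had an SE of 0.44. The Cdh5 peak at -78.5 kb, with 2.03 CPM in mESCs, had an SE of 0.13.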
